A study of Mus musculus with 10 samples.

Results

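The basolateral membrane of the kidney tubule faces the blood, and 6 genes that encode its potassium channels, its chloride channel subunit and its sodium pump were followed here: Kcnj10, Kcnj16, Kcnj15, Bsnd, Atp1b1 and Fxyd2. They were chosen by name, with earlier results of these data known, among the 13299 genes of the series. All 6 were found there, and all 6 were among the 13236 genes that passed the filter on low values. Whole kidneys of old mice aged 1.5 years were compared between 5 mice of the genotype that the labels call RagC S74N (KI/+), written Rragc S74N/+ below, and 5 mice that they call (+/+), written Rragc +/+. Rragc S74N/+ mice carry on a single allele, in every cell of the body, a serine-to-asparagine change in RagC, a small GTPase that signals nutrient sufficiency to the growth-promoting kinase complex mTORC1. Both groups were untreated as far as the labels say, the strain of the study was C57BL/6, the labels give no sex, and each sample is a homogenate of all cell types of the kidney.

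Sodium leaves tubule cells through the Na,K-ATPase, which is built of a catalytic α subunit, a β subunit that brings it to the membrane and a small FXYD subunit that tunes its affinity for ions. The potassium that the pump takes in returns to the blood through inwardly rectifying Kir channels, and this recycling sets the membrane voltage that drives chloride out through the chloride channels of the same membrane. Kir4.1, Kir4.2 and Kir5.1, the products of Kcnj10, Kcnj15 and Kcnj16, assemble into such channels: Kir5.1 forms no working channel by itself and pairs with Kir4.1 in the distal nephron and with Kir4.2 in the proximal tubule. Barttin, the product of Bsnd, is the accessory subunit that carries these chloride channels to the membrane. Inherited mutations of human KCNJ10, BSND or FXYD2 cause salt or magnesium to be lost in the urine.

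Messenger RNA was sequenced from its 3′ end, and the values are read counts per gene that the authors divided by a size factor per sample, called normalized counts. A sample held between 4488493 and 5797251 reads, a normalized count of 1 stood for about a single read, and mitochondrial transcripts took 35.8% to 38.0% of the normalized counts in Rragc +/+ and 33.8% to 36.8% in Rragc S74N/+ kidneys. Labels gave no replicate numbers and do not say how the mice were related, so replicates are numbered 1 to 5 within a group by order of deposit only, and p-values measure the spread between these samples. A gene was called changed at an adjusted p under 0.05 (limma on log2 of the normalized count + 1, two-sided, Benjamini-Hochberg over all 13236 genes), and fold changes are on that log2 scale, which understates changes of low genes. The defining markers of the proximal tubule (Lrp2 and Slc34a1), the thick ascending limb (Slc12a1 and Umod) and the distal convoluted tubule (Slc12a3 and Pvalb) were above 0 in every sample, except that Pvalb was at 0 in Rragc S74N/+ replicate 5.

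Of the 3 Kir subunit genes 1 was called lower, 1 higher and 1 in neither direction, so the 250 bases before their transcription starts are printed for side-by-side reading. They come from RefSeq on GRCm38.p6, an older build than the GRCm39 on which reads were aligned. Capitals mark the letters searched for on both strands. They are the CCAAT box, the TATA box (TATAAA), the E-box read by TFEB, a factor that mTORC1 controls (CACGTG) and the core read by estrogen-related receptors (AAGGTCA). Kcnj10 is shown from chr1:172340960-172341209 on the + strand, Kcnj15 from chr16:95257308-95257557 on the + strand, and the first of 4 RefSeq starts of Kcnj16 from chr11:110967783-110968032 on the + strand.
Kcnj10: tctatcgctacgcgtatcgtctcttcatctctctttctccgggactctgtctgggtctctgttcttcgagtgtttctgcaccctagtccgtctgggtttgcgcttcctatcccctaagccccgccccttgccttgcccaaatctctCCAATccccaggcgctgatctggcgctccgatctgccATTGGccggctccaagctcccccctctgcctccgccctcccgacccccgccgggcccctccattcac
Kcnj15: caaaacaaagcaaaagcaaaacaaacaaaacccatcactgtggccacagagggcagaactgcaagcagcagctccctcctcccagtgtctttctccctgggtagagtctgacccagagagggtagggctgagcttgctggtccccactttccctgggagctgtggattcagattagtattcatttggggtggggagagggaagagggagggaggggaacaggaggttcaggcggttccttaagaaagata
Kcnj16: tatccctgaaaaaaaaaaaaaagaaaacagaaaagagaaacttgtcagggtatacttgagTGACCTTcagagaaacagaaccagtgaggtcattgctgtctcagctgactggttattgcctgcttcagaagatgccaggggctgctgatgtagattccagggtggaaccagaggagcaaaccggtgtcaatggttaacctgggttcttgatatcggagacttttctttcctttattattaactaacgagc
The Kcnj10 stretch held CCAAT 2 times, at 104 to 100 bases before the start and, on the opposite strand, at 67 to 63 bases, a motif found in 33.8% of all 32851 windows of this length. The Kcnj16 stretch held AAGGTCA on the opposite strand at 190 to 184 bases (4.08% of all windows). No searched motif lay in the Kcnj15 window, and CACGTG (6.02% of all windows) lay in none of the windows of Kcnj10, Kcnj15, Kcnj16 and Atp1b1, the 4 genes with an entry. Atp1b1 held CCAAT on the opposite strand at 81 to 77 bases. Of the windows not printed, the third start of Kcnj16 held TATAAA at 133 to 128 bases (12.4% of all windows) and the fourth CCAAT at 60 to 56 bases. A match describes letters and is not evidence of binding.

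Of the 6 genes, 3 were called: Kcnj10 and Bsnd were lower and Kcnj15 was higher in Rragc S74N/+ kidneys. Because the 6 were chosen with earlier results of these data known, this count is a description and not a test. Over all tested genes 6.03% were called, 3.45% higher and 2.58% lower, and 25.4% had an unadjusted p under 0.05 (12.6% higher and 12.8% lower). Those were 457 and 341 genes, and 718 and 225 when samples were scaled to equal library totals, under which the same 3 of the 6 genes were called. Groups did not overlap for the same 3 genes, against 8.16% of all genes (4.15% higher and 4.01% lower). The same number of the 6 passed with edgeR on the recovered reads of 10 samples and 4 with DESeq2, where 6.3% and 10.4% of all genes passed. Atp1b1, Fxyd2 and Kcnj16 did not pass the test, and the median log2 fold change of the 6 genes was -0.32, against -0.01 over all tested genes. In whole kidney, fewer cells of a type and less RNA per cell cannot be told apart.

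**Figure D1:**
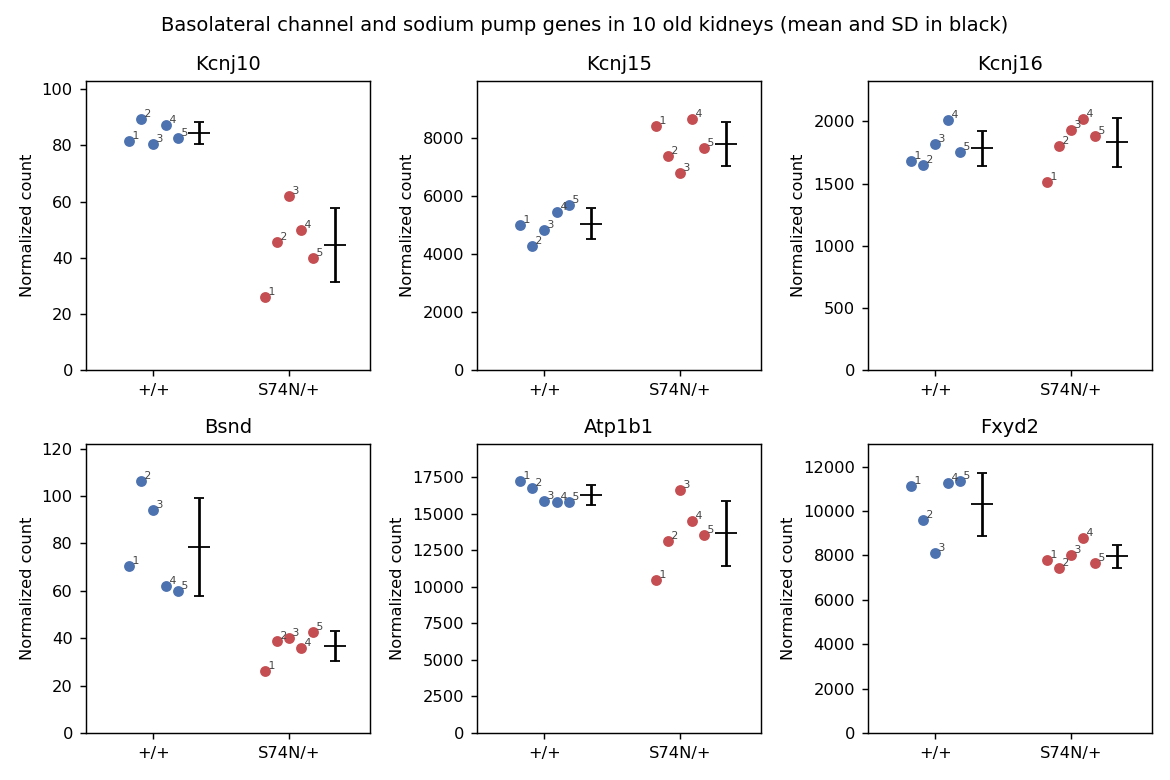
Normalized counts (linear axes from 0) of the 6 genes in each of the 10 kidneys, with a numbered point for each mouse and the mean and SD of each group (n = 5) in black. Rragc S74N/+ points lie below all Rragc +/+ points for Kcnj10 and Bsnd, and above them for Kcnj15. For Kcnj16, 3 of 5 lie within the Rragc +/+ range, 1 below and 1 above it, and 4 of 5 lie below all Rragc +/+ points for Atp1b1 and Fxyd2.

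Kcnj10 encodes Kir4.1, the basolateral potassium channel of the distal convoluted tubule and its neighbours. Its normalized counts in the 5 Rragc +/+ kidneys were 81.7, 89.5, 80.6, 87.3 and 82.6. In the 5 Rragc S74N/+ kidneys they were 26.1, 45.6, 62.0, 49.9 and 39.8. All mutant kidneys thus lay below all wild-type kidneys, with replicate 1 the lowest and replicate 3 the nearest to the wild type. The mean went from 84.3 ± 3.85 to 44.7 ± 13.2 (SD, n = 5 each), which on the log2 scale is a change of -0.95 ± 0.20 (SE; 95% interval from -1.39 to -0.52; adjusted p by limma = 0.014), or a level 0.516 times that of the wild type. Values spread over 4.56% of the mean (coefficient of variation) in Rragc +/+ and over 29.5% in Rragc S74N/+ kidneys, a difference that was not tested. The gene rested on 73 to 100 reads per sample in Rragc +/+ and on 28 to 62 in Rragc S74N/+ kidneys. The part of read counting in these spreads was not tested. Without Rragc S74N/+ replicate 1 the log2 fold change was -0.78 (limma, adjusted p = 0.010).

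Kcnj16 encodes Kir5.1, the subunit that makes Kir4.1 and Kir4.2 channels sensitive to pH. It had 1681, 1651, 1817, 2011 and 1752 normalized counts in Rragc +/+ and 1512, 1800, 1933, 2021 and 1886 in Rragc S74N/+ kidneys. The groups overlapped, the lowest and the highest value of all 10 belonging to Rragc S74N/+ replicates 1 and 4. Means were 1783 ± 143 and 1830 ± 195 (SD, n = 5 each), and the log2 change was 0.03 ± 0.11 (SE; adjusted p by limma = 0.87), with a 95% interval of -0.19 to 0.26.

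Kcnj15 encodes Kir4.2, the basolateral potassium channel of the proximal tubule. Wild-type kidneys held 4993, 4291, 4831, 5447 and 5698 normalized counts. Mutant kidneys held 8397, 7379, 6792, 8661 and 7655. The lowest mutant kidney was above the highest wild-type kidney, and the scatter was alike in the groups, at 10.9% and 9.77% of the mean. The mean was 5052 ± 549 in Rragc +/+ and 7777 ± 760 in Rragc S74N/+ (SD, n = 5 each), a log2 change of 0.62 ± 0.12 (SE; 95% interval 0.38 to 0.87; adjusted p by limma = 0.00737), or 1.54 times the wild-type level. Of 10 marker genes of the proximal tubule, the segment in which Kir4.2 is found, 0 were called higher and 1 lower by limma, edgeR and DESeq2 alike, with 0 and 1 at an unadjusted p under 0.05. That 1 gene was Slc5a2, the sodium-glucose cotransporter of the early segment. Over the 10 markers the median log2 fold change was -0.11, and their summed normalized counts ran from 40851 to 52252 in Rragc +/+ and from 40849 to 53439 in Rragc S74N/+ kidneys.

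Kcnj16 transcripts stood at 21.1 (18.5 to 23.0) per Kcnj10 transcript in Rragc +/+ and at 42.4 (31.2 to 57.9) in Rragc S74N/+ kidneys, as geometric means with ranges over 5 samples each. These ratios of normalized counts within a sample do not depend on how samples were scaled, and, since counts at the 3′ end also depend on how well each transcript is primed, only their change between groups is read. The log2 ratio of Kcnj16 to Kcnj10 was 1.01 higher in Rragc S74N/+ kidneys, without overlap. Against Kcnj15, its proximal partner, Kcnj16 went the other way, from 0.354 (0.307 to 0.385) to 0.235 (0.180 to 0.285), a log2 difference of -0.59, again without overlap. Kcnj16 itself hardly changed, so both differences largely repeat the fold changes of Kcnj10 and Kcnj15. The Kcnj16 to Kcnj15 ratio was added after values had been seen, and ratios carry no test because the genes were chosen with results known.

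**Figure D2:**
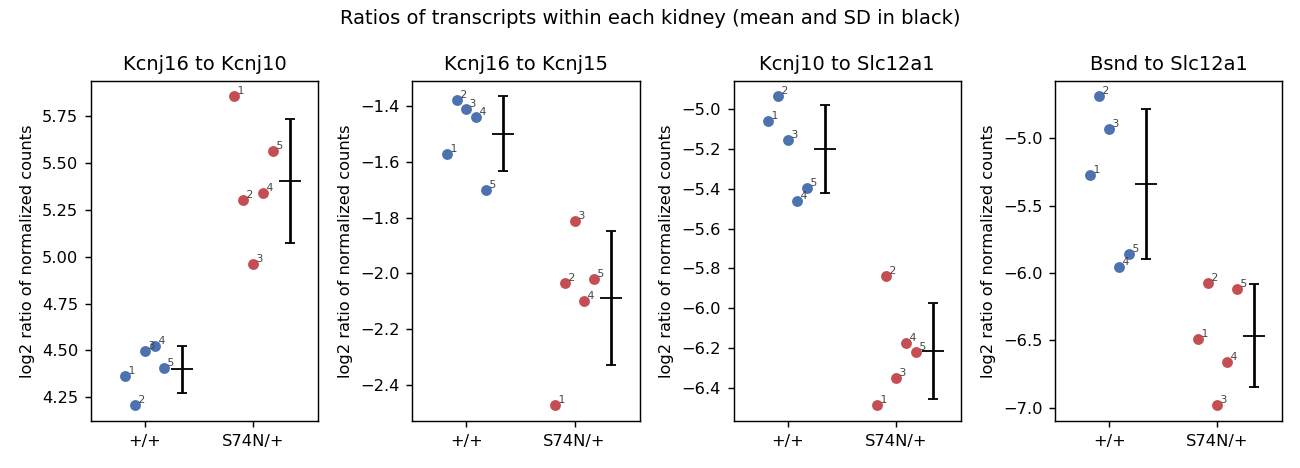
Log2 ratios of normalized counts within each kidney, for Rragc +/+ and Rragc S74N/+ mice, with a numbered point for each mouse and the mean and SD of each group (n = 5) in black. Groups do not overlap in any of the 4 panels. The ratio of Kcnj16 to Kcnj10 is higher in Rragc S74N/+ kidneys. The ratios of Kcnj16 to Kcnj15 and of Kcnj10 and Bsnd to Slc12a1, a thick ascending limb gene, are lower. Kcnj16 and Slc12a1 hardly changed, so the panels largely repeat the changes of Kcnj10, Kcnj15 and Bsnd. Ratios of Kcnj16, Kcnj15, Atp1b1 and Fxyd2 to Slc12a1, not shown, overlapped between groups.

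Of 18 other renal potassium channel genes listed, 10 were tested and 0 were called by limma, edgeR or DESeq2 on 10 samples. At an unadjusted p under 0.05, 2 were higher and 2 lower (25.4% of all genes), and the median log2 fold change was -0.33. Kcnj1, which encodes ROMK, the apical channel that secretes potassium in the thick ascending limb and collecting duct, went from 155.0 ± 21.9 to 108.9 ± 35.2 normalized counts (SD, n = 5 each). Its log2 change was -0.55 ± 0.19 (SE) and missed the threshold (adjusted p by limma = 0.095), although 4 of 5 mutant kidneys lay below every wild-type kidney. Without Rragc S74N/+ replicate 4, the mutant kidney with the highest Kcnj1, the log2 fold change of Kcnj1 was -0.71 and passed (limma, adjusted p = 0.035). The other 9 fits that each left out a single sample missed the threshold (limma, adjusted p up to 0.18).

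Bsnd encodes barttin. Normalized counts were 70.5, 106.1, 94.1, 62.0 and 59.7 in Rragc +/+ and 26.1, 38.8, 40.0, 35.6 and 42.7 in Rragc S74N/+ kidneys. The groups stood apart, and within the wild type replicates 2 and 3 were higher than the others. The mean was 78.5 ± 20.6 in Rragc +/+ and 36.7 ± 6.42 in Rragc S74N/+ (SD, n = 5 each), a log2 change of -1.06 ± 0.21 (SE; 95% interval -1.50 to -0.62; adjusted p by limma = 0.00897), or 0.480 times the wild-type level. Bsnd rested on 28 to 102 reads per sample.

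Across the ClC family with barttin, 6 of the 8 listed genes were tested, 2 were called lower and 0 higher by limma, edgeR and DESeq2 alike, with 3 lower and 0 higher at an unadjusted p under 0.05 (25.4% of all genes) and a median log2 fold change of -0.20. The gene called beside Bsnd was Clcn7, which encodes the chloride-proton exchanger of lysosomes and does not belong to the basolateral membrane. Its log2 fold change was -1.15 ± 0.24 (SE; adjusted p by limma = 0.013). No other ClC gene of the list passed.

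Atp1b1 encodes the β1 subunit of the Na,K-ATPase, the β subunit of nearly all kidney tubules. It was abundant, with 17214, 16753, 15860, 15822 and 15790 normalized counts in Rragc +/+ kidneys. Rragc S74N/+ kidneys held 10488, 13136, 16625, 14473 and 13533. Replicate 3 lay within the wild-type range and the other 4 mutant kidneys below it, with replicate 1 the lowest. The mean was 16288 ± 656 and 13651 ± 2225 (SD, n = 5 each), and the log2 change, at -0.27 ± 0.13 (SE; 95% interval -0.55 to 0.01), missed the threshold (adjusted p by limma = 0.21). Spread was 4.03% of the mean in Rragc +/+ and 16.3% in Rragc S74N/+ kidneys.

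Fxyd2 encodes the γ subunit of the pump, found along most of the nephron. Its normalized counts were 11146, 9608, 8131, 11271 and 11334 in Rragc +/+ and 7816, 7454, 8027, 8802 and 7668 in Rragc S74N/+ kidneys. Wild-type replicate 3 was the lowest of its group and lay within the mutant range, and 4 of 5 mutant kidneys were below every wild-type kidney. Means of 10298 ± 1406 and 7953 ± 519 (SD, n = 5 each) gave a log2 change of -0.36 ± 0.12 (SE; 95% interval -0.62 to -0.10), which missed the threshold (adjusted p by limma = 0.084). Without Rragc +/+ replicate 3 it was -0.45 and passed (limma, adjusted p = 0.038). The other 9 fits that each left out a single sample missed the threshold (limma, adjusted p up to 0.18). In Rragc +/+ replicate 3 the summed normalized counts of 8 principal cell markers were 3478, against 1100 to 1646 in the other wild-type kidneys. The part of this in the Fxyd2 value was not tested.

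Of the remaining pump and FXYD genes, Fxyd5 was called. It encodes dysadherin, an FXYD protein of epithelia that also lowers cell adhesion, and it was higher in Rragc S74N/+ kidneys, at 102.0 to 175.3 against 51.7 to 89.9 normalized counts, without overlap. Its log2 fold change was 0.96 ± 0.20 (SE; adjusted p by limma = 0.011). Leukocyte markers moved the same way: 4 of 11 tested were called higher and 0 lower by limma and edgeR (5 and 0 by DESeq2; 9 and 0 at an unadjusted p under 0.05), all 11 had a positive log2 fold change, and the summed normalized counts were 624 to 791 in Rragc +/+ and 1006 to 1375 in Rragc S74N/+ kidneys. The defining markers Ptprc (limma, log2 fold change 1.20, adjusted p = 0.00148) and Cd3e (1.61, adjusted p = 0.13, and at 0 in Rragc +/+ replicate 5) were above 0 in all mutant kidneys, and the part of leukocytes in the Fxyd5 value was not tested. Of 14 listed pump and FXYD genes 9 were tested, 1 was called higher and 0 lower by limma and edgeR (1 and 1 by DESeq2; 1 and 3 at an unadjusted p under 0.05, against 25.4% of all genes), and the median log2 fold change was 0.26, Atp1b1 and Fxyd2 included.

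**Figure D3:**
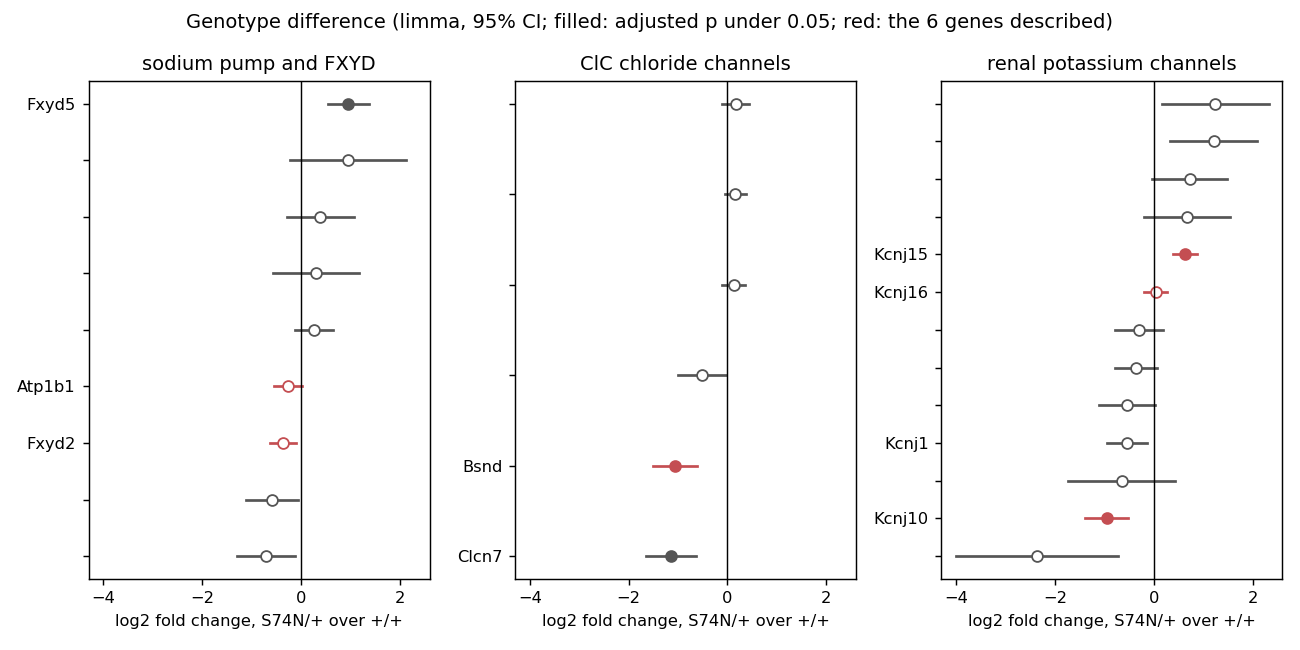
Log2 fold change (Rragc S74N/+ over Rragc +/+) of each tested gene of the pump and FXYD, ClC chloride channel and renal potassium channel lists, with 95% intervals from limma and the 6 genes in red. Filled points passed at an adjusted p under 0.05, which are Kcnj10, Bsnd and Clcn7 below 0 and Kcnj15 and Fxyd5 above 0, and genes not described in the text carry no name.

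Other carriers of the same membrane showed no common direction, with a positive log2 fold change in 7 of 16. Of 17 listed basolateral transporters 16 were tested, 0 were called higher and 2 lower by limma and by edgeR (2 and 3 by DESeq2), 2 were higher and 6 lower at an unadjusted p under 0.05 (25.4% of all genes), and the median log2 fold change was -0.13. Slc4a1, also on the list of intercalated cell markers, encodes the chloride-bicarbonate exchanger of type A intercalated cells and of red cells. It went from 119.3 ± 17.0 to 54.6 ± 22.2 normalized counts (SD, n = 5 each), or -1.19 ± 0.24 (SE) on the log2 scale (adjusted p by limma = 0.00918). Cnnm2, a basolateral magnesium regulator of the distal convoluted tubule, fell by 0.62 ± 0.14 (SE) on the log2 scale (adjusted p by limma = 0.015; 0.051 without Rragc +/+ replicate 2, at a log2 change of -0.57).

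A list of 16 genes drawn up as regulators was read next, and all were tested. It also holds WNK pathway genes, described below by their action on the sodium chloride cotransporter. Of the 16, 5 were called lower and 0 higher by limma, edgeR and DESeq2 alike. At an unadjusted p under 0.05, 9 were lower and 1 higher (25.4% of all genes), and the median log2 fold change was -0.41. The kinase genes Wnk1 (log2 fold change -0.48; limma, adjusted p = 0.014) and Wnk4 (-0.98, adjusted p = 0.000506), which act on the sodium chloride cotransporter in response to the chloride level that Kir4.1 helps to set, were lower. Klhl3, the adaptor that sends WNK kinases to degradation, fell by 1.47 on the log2 scale (limma, adjusted p = 9.4e-05). Wnk4 and Klhl3 are also on the list of distal convoluted tubule markers. Esrrb, an estrogen-related receptor, had a log2 fold change of -1.16 (adjusted p = 0.028), and Pcbd1, a dimerization cofactor of transcription factors, one of -0.45 (adjusted p = 0.028). Wnk1 missed the threshold without the variance trend (limma, adjusted p = 0.055) and with edgeR on the recovered reads of 8 samples (0.053). Esrrb missed it without Rragc +/+ replicate 1, 2, 3 or 4 or Rragc S74N/+ replicate 5 (log2 fold change -1.19 to -1.02, adjusted p = 0.051 to 0.076) and without the trend (0.058). Pcbd1 missed it without Rragc +/+ replicate 1, 2, 4 or 5 or Rragc S74N/+ replicate 2 or 5 (-0.45 to -0.41, adjusted p = 0.051 to 0.073), without the trend (0.079) and on 8 samples with edgeR (0.060) and limma (0.057).

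Markers of the segments that hold these proteins are given beside them. All 9 distal convoluted tubule markers were called lower (7 without the variance trend), with a median log2 fold change of -1.21. Their summed normalized counts were 6919 to 8618 in Rragc +/+ and 2289 to 3860 in Rragc S74N/+ kidneys. The defining gene Slc12a3, the thiazide-sensitive sodium chloride cotransporter, fell by 1.94 ± 0.14 (SE) on the log2 scale (adjusted p by limma = 1.61e-06). Pvalb, parvalbumin of the early segment, fell by 4.93 ± 0.55 (SE, adjusted p by limma = 9.4e-05), with 0 to 16.3 normalized counts in the mutant kidneys. Counts of Kcnj10 and of Bsnd per Slc12a3 count were higher in every mutant kidney than in any wild-type kidney, with mean log2 ratios 0.97 and 0.86 higher. The same held for the other 4 genes, by 1.97 for Kcnj16, 2.56 for Kcnj15, 1.67 for Atp1b1 and 1.57 for Fxyd2. Because Slc12a3 itself fell by 1.94, any gene that fell less has a higher ratio to it. The ratios therefore do not set these 6 genes apart, and the share of such genes over all was not counted. The part of the distal convoluted tubule in the values of Kcnj10 and Bsnd was not tested.

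In the thick ascending limb, 4 of 8 tested markers were called lower (Umod, Cldn10, Ppp1r1a and Ptger3) and 0 higher by limma, edgeR and DESeq2 alike (5 and 0 at an unadjusted p under 0.05), and summed normalized counts were 9523 to 12700 in Rragc +/+ and 4149 to 10234 in Rragc S74N/+ kidneys. Umod, the most abundant secreted protein of that segment, fell by 1.55 ± 0.23 (SE) on the log2 scale (adjusted p by limma = 0.0013). Slc12a1, the apical sodium-potassium-chloride cotransporter that defines the segment, had a log2 change of 0.04 ± 0.18 (SE; adjusted p = 0.91), whose sign changed with the samples used. Against Slc12a1, the log2 ratio of Kcnj10 differed by -1.01 and that of Bsnd by -1.12 in Rragc S74N/+ kidneys, each without overlap. Ratios of the other 4 genes overlapped between groups. Since Slc12a1 hardly changed, these differences largely repeat the log2 fold changes of Kcnj10 (-0.95) and Bsnd (-1.06). Of the markers called lower, Umod and Ptger3 (-2.05) fell more than both genes, and Cldn10 (-0.72) and Ppp1r1a (-0.89) fell less. Ratios to these markers were not taken. Of 8 principal cell markers 0 were called by limma, edgeR or DESeq2, with 1 at an unadjusted p under 0.05, and the summed normalized counts of that list ran from 1100 to 3478 in Rragc +/+ and from 1115 to 2818 in Rragc S74N/+ kidneys. Of 8 intercalated cell markers 3 were called by limma (1 higher and 1 lower by edgeR; 2 and 2 by DESeq2), with sums of 1711 to 2043 and 1794 to 2005. The 3 genes called by limma were Slc26a4, higher, and Slc4a1 and Aqp6, lower.

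**Figure D4:**
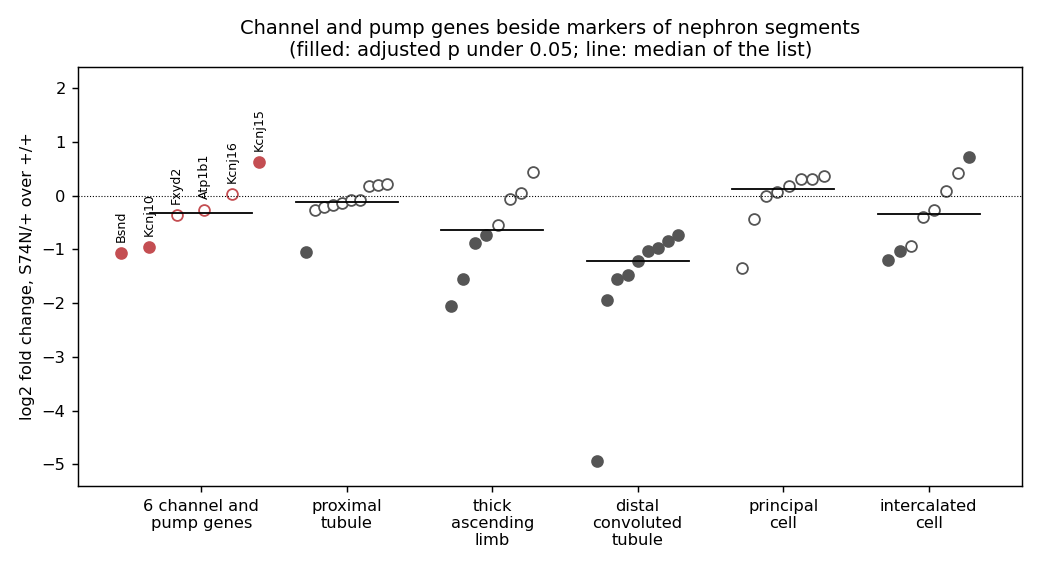
Log2 fold changes (Rragc S74N/+ over Rragc +/+) of the 6 channel and pump genes beside marker genes of 5 nephron segments and cell types, with filled points for an adjusted p under 0.05 and a line at each median. The median lies at -0.32 for the 6 genes, -0.11 for the proximal tubule, -0.64 for the thick ascending limb and -1.21 for the distal convoluted tubule.

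Sample titles carried numbers that lay either under or over 200, which split the kidneys into sets of 3 against 3 and 2 against 2, and the labels do not say what the numbers stand for. Kcnj10 had a log2 fold change of -0.98 in the first set and -0.91 in the second. Kcnj15 had 0.67 and 0.55, and Bsnd -1.35 and -0.63. Directions were alike in both sets for these 3 genes, which was fixed in advance because their groups did not overlap over all kidneys. Kcnj15 passed in the second set (limma, adjusted p = 0.00261), and the other values of these 3 genes did not, where 0.348% of all genes passed in the first set and 4.66% in the second (19.7% and 18.2% at an unadjusted p under 0.05). Atp1b1 had -0.33 and -0.18, and Kcnj16 0.02 and 0.06. Fxyd2 had -0.30 and -0.46, the second passing the test (adjusted p = 0.011).

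Mice of a genotype also differed among themselves, and some genes varied together. After the mean of each genotype was subtracted, Kcnj10 and Atp1b1 had a Pearson correlation of 0.94 over the 10 samples. This ranked Atp1b1 at 16 among the 7741 genes searched for likeness to Kcnj10. Spread of the 2 genes was 29.5% and 16.3% of the mean in Rragc S74N/+ but 4.56% and 4.03% in Rragc +/+ kidneys. The correlation thus rests mainly on the mutant kidneys. Kcnj15 and Bsnd varied in opposite ways, at -0.81. The genes nearest in pattern to Kcnj10 were Acot7, Phb and Cpt2 (0.97 each, but 0.88, 0.84 and 0.68 by Spearman rank correlation). For Kcnj16 they were Ahcy, Cyth2 and Faf1 (0.94, 0.94 and 0.93). For Kcnj15 they were Ggcx, Zbtb38 and Tln1 (0.96, 0.95 and 0.94), and for Bsnd Max, Mpped2 and Ptbp3 (0.97, 0.95 and 0.95). Atp1b1 was nearest to Mrpl2, Cnot6l and Hs6st1 (0.97, 0.96 and 0.95), and Fxyd2 to Rpl15, Card10 and mt-Rnr1 (0.95, 0.95 and 0.94). All values of a sample share its library and depth, the best of 7741 genes are high by selection, and these correlations are descriptions without a test.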

How the data were processed

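Total RNA of whole kidney was made into oligo-dT primed 3′ libraries (QuantSeq FWD). According to the submitters' processing notes and the methods of the study, reads were checked with FastQC 0.11.7, aligned to GRCm39 with TopHat2 2.0.10 (Bowtie 1.0.0, SAMtools 0.1.19) and assigned to genes in the sense direction with HTSeq 0.6.1. The deposited values are a signal, normalized counts that the authors made by dividing read counts by a size factor per sample. Every column came back to whole reads (100% of values within 0.001 read). For 2 columns, Rragc +/+ replicate 5 and Rragc S74N/+ replicate 3, the value of a read was too near 1 for a general test, so count models were run on 8 samples as planned and on 10 samples as an alternative added after the data were seen. Every column belonged to a sample of the series.

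Genes with at least 5 normalized counts in at least 5 samples were kept (13236, with 63 removed). Log2(normalized count + 1) was modelled on genotype alone with limma 3.58.1 (R 4.3.3; eBayes with a variance trend). edgeR 4.0.16 (quasi-likelihood, TMM) and DESeq2 1.42.0 were alternatives, beside pseudocounts of 0.5 and 5, other filters, scalings and eBayes settings, the range of the title number as a block, and each sample left out. Counts of list genes called by edgeR and DESeq2 are those on 10 samples unless 8 samples are named. The fit was tested on simulated data. Normalized counts cannot tell which Rragc allele was transcribed. Precision at low genes is limited by 28 to 102 reads per sample for Kcnj10 and Bsnd.

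The 6 genes and all lists were chosen with earlier results of these data known. Named were the 6 genes; genes past the threshold in the pump, channel, transporter and regulator lists, and in any case Kcnj1; defining markers; and the 3 genes most like each member. Other genes of marker lists were named because few passed, after their values were seen. Likeness was the Pearson correlation over 10 samples after subtracting genotype means, among genes with a mean of at least 50. Promoters were RefSeq windows of GRCm38.p6, searched over 250 bases before the start; 4 of the 6 genes had an entry. GENCODE genes that overlap Atp1b1 and Kcnj15 lie on the opposite strand. Results on some genes are not reported here, and the counts and medians of the lists leave those genes out.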

Additional observations from a re-analysis of the deposited data

Results flagged for a closer look

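The search for outlying samples in each genotype took the 6 genes, Kcnj1, the defining markers and the genes called in the pump, channel, transporter and regulator lists. It also took the summed normalized counts of each list other than the 6 genes, and the log2 ratios of Kcnj16 to Kcnj10 and to Kcnj15. Among the 98 groups of 5 samples searched, 5 held a sample far from the other 4 by Dixon's criterion, where chance gives 4.9 at 1 in 20. None of the 6 channel and pump genes was among them. In Rragc S74N/+ kidneys, replicate 4 had 16.3 normalized counts of Pvalb, against 0 to 3.88 in the others. Replicate 1 of the same genotype had 235.9 of Kdr, a receptor of endothelial cells (350.9 to 397.4 in the others), and a summed count of endothelial markers of 2397 (1859 to 1947). This was also the kidney with the lowest Kcnj10, Kcnj16, Bsnd and Atp1b1, but not the lowest Kcnj15 or Fxyd2. In Rragc +/+ kidneys, replicate 3 had 2145 of Aqp2, the vasopressin-regulated water channel (316.6 to 659.6 in the others), and a summed count of principal cell markers of 3478 (1100 to 1646), and it had the lowest Fxyd2 of its group.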

How the results depend on the processing

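Kcnj10, Kcnj15 and Bsnd kept their call in each alternative run on 8 or 10 samples and with each sample left out. Their direction also held, though leaving samples out could not change it, because their groups did not overlap. Over these settings their log2 fold changes ran from -1.09 to -0.78 for Kcnj10, from 0.57 to 0.72 for Kcnj15 and from -1.22 to -0.94 for Bsnd, with an adjusted p up to 0.044, 0.032 and 0.032 (each by limma). Among the kidneys with title numbers under 200 alone 0 of the 6 genes passed by limma (3 at an unadjusted p under 0.05), where 0.348% of all genes passed (19.7% unadjusted), with Kcnj10 at -0.98 (adjusted p = 0.17), Kcnj15 at 0.67 (0.13) and Bsnd at -1.35 (0.087); among those over 200, where 4.66% of all genes passed, Kcnj10 was at -0.91 (0.056), Bsnd at -0.63 (0.27) and Fxyd2 at -0.46 (0.011). These subsets hold fewer samples. Fxyd2 also passed with DESeq2 on 10 samples (-0.37, adjusted p = 0.020), and without single samples lay between -0.45 and -0.33. Kcnj16 lay between -0.0029 and 0.10 without single samples, turning negative without Rragc S74N/+ replicate 4.

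The number of genes called, all tested genes included, was 391 without the variance trend, 1402 with DESeq2 on 8 samples and 1354 on 10 samples, and 311 to 902 without single samples, the lowest counts being those without Rragc +/+ replicate 1 (368), 2 (311) or 4 (383) or Rragc S74N/+ replicate 5 (371). Scaling to equal library totals turned the 457 higher and 341 lower calls into 718 and 225 and shifted the median of all genes by 0.08 on the log2 scale. Regulator genes called numbered 2 without the trend, 3 with edgeR on 8 samples and 3 to 5 without single samples. Pump and FXYD genes numbered 2 with DESeq2 on 10 samples and 1 to 2 without single samples (2 without Rragc +/+ replicate 3). ClC genes numbered 1 with a mean of at least 50 normalized counts, a filter that leaves fewer genes tested. Potassium channels numbered 3 with edgeR and 5 with DESeq2 on 8 samples, and 2 to 3 without single samples. Other basolateral transporters numbered 4 and 5 with DESeq2 on 8 and 10 samples and 1 to 4 without single samples. Distal convoluted tubule markers numbered 7 without the trend, 8 with the robust setting of eBayes and 8 to 9 without single samples. Other causes were not tested.

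Signs changed for values near 0. The log2 fold change of Slc12a1 was at -0.071, -0.079 and -0.082 with edgeR, DESeq2 and limma on 8 samples and -0.12 to 0.15 without single samples. Hsd11b2 was at -0.054 with limma on 8 samples, and Pdgfrb -0.31 to 0.049 without single samples. No paired analysis was possible because the labels carry no replicate numbers; the range of the title number as a block changed none of the calls of the 6 genes. Among the 6 genes depth limits Kcnj10 and Bsnd most, at 28 to 102 reads per sample, and Esrrb (15 to 80 reads) and Clcn7 (20 to 69 reads) rested on fewer.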

Other observations

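Cell types of the kidney that do not form the tubule were read from further marker lists. Fibroblast and mural markers had 3 of 7 genes called higher (Col1a1, Col1a2 and Pdgfra) and 0 lower by limma and edgeR (4 and 0 by DESeq2; 4 and 0 at an unadjusted p under 0.05), with a median log2 fold change of 0.53 and summed normalized counts of 963 to 1727 in Rragc +/+ and 1474 to 2301 in Rragc S74N/+ kidneys. Col1a1, the collagen of scar matrix, went from 180.3 ± 23.2 to 417.8 ± 99.7 normalized counts (SD, n = 5 each; limma, adjusted p = 0.00047). Podocyte markers had 1 of 4 genes called, Synpo, which was higher (3 higher and 0 lower at an unadjusted p under 0.05). Endothelial markers had 1 of 7 called, Plvap, which was lower (0 higher and 2 lower unadjusted). Summed normalized counts of podocyte markers were 499 to 592 in Rragc +/+ and 627 to 842 in Rragc S74N/+ kidneys, without overlap. Those of endothelial markers were 1978 to 2228 and 1859 to 2397, and they overlapped.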
